A study of Rattus norvegicus with 6 samples.

Results

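The genes described here are the 10 core genes of the circadian feedback loop: the activators Clock, Arntl and Npas2, the repressors Per1, Per2, Per3, Cry1 and Cry2, and the Rev-erb receptors Nr1d1 and Nr1d2. They were chosen by gene name among the 32883 rat genes of the deposited count table, and all 10 names matched a single row each. The RNA came from GH4C1 cells, an established clonal line of rat pituitary tumour cells that make growth hormone and prolactin, labelled wild type. All cells had been treated with psoralen, which crosslinks base-paired nucleic acid strands, and RNA was then pulled down to find partners of the long noncoding RNA Neat1, the scaffold of the nuclear bodies called paraspeckles. The 2 groups differ in the oligonucleotide pool used for the pull-down, pool A or pool B, with 3 libraries each. The labels do not say what the oligonucleotides of either pool bind, whether one pool is a control, whether the libraries came from separate cultures, or at what circadian time the cells were taken. P-values therefore measure the spread between these libraries, which may be technical.

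In the circadian clock of mammalian cells, CLOCK and the protein of Arntl (BMAL1, for which the newer gene symbol is Bmal1) pair and switch on the Per, Cry and Nr1d genes through DNA elements called E-boxes. PER and CRY proteins return to the nucleus and block that pair, and the Rev-erb receptors repress Arntl, which closes a further loop. Paraspeckles can hold RNAs in the nucleus, and the study sought RNAs in direct contact with Neat1. The pull-down measures recovered RNA and not the amount of RNA in the cell. Input RNA was not analysed here, so recovery and abundance cannot be told apart, and in bulk RNA fewer cells with a transcript and less of it per cell cannot be told apart either.

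The libraries held between 1826390 and 3685899 counts, and the 10 loop genes together made up between 0.0294% and 0.0483% of them. Levels are given as CPM, counts scaled to the library's size, after scaling by the trimmed mean of M-values (TMM), a method that evens out libraries in which a few very abundant rows take up many reads. A count of 0 allows up to 3 counts, or between 0.868 and 1.54 CPM depending on the library, and reads carried no stated molecular identifiers, so such limits cover counting error only. Of the markers of the growth hormone and prolactin lineage, Gh1, Prl, Pou1f1 and Chgb were detected in every library, whereas the receptor genes Ghrhr and Drd2 had no count in any library. Of these, Chgb was higher with pool B (log2 fold change -2.94) and Prl with pool A (0.83), while Gh1 and Pou1f1 did not pass. Folliculostellate and endothelial markers summed to at most 4.0 and 0.868 CPM. The 2 corticotroph markers, Pomc and Tbx19, summed to between 4.63 and 9.90 CPM with pool A and between 6.18 and 7.70 with pool B. The markers of other cell types with the most counts were Trhr, listed for thyrotrophs but also known from GH cell lines, and Lhb of gonadotrophs. Trhr was higher with pool A (log2 fold change 0.96) and Lhb with pool B (-1.68). The 4 gonadotroph markers, of which Fshb had no count, summed to between 11.4 and 15.8 CPM with pool A and between 40.6 and 46.2 with pool B. The 2 thyrotroph markers, of which Tshb had no count, summed to between 132.99 and 164.9 CPM with pool A and between 66.8 and 93.5 with pool B. The 3 fibroblast markers summed to between 17.3 and 27.2 CPM with pool A and between 9.09 and 17.1 with pool B, so the ranges nearly met. Dcn, the only 1 of them tested, did not pass (edgeR adjusted p of 0.148). The 3 leukocyte markers summed to between 14.2 and 21.3 CPM with pool A and between 15.6 and 23.1 with pool B, and among them Ptprc had 6, 1 and 18 counts with pool A and none with pool B. The part of these markers in the results below was not tested.

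Across the loop, Arntl stood out by its recovery with pool B, while its partner Clock differed little. Differences were tested with edgeR's quasi-likelihood test over the whole table, and each fold change is the log2 of pool A relative to pool B. Of the 10 loop genes, 9 passed the filter on low counts and 3 passed an adjusted p of 0.05. Per3 was higher with pool A, and Arntl and Nr1d2 were higher with pool B. Among all 11582 genes tested, 40.6% passed that threshold, so a share of 33.3% is near the background and is no property of the loop. In the direction of pool A, 1 of 9 loop genes passed against 18.6% of all genes, and in the direction of pool B 2 of 9 against 22.0%. The median log2 fold change was -0.22 for the 9 loop genes and 0.02 for all tested genes. The median size, whatever the direction, was 0.62 for the loop genes and 0.61 for all. Libraries of the 2 pools did not overlap for 3 of the 9 tested loop genes, Arntl, Per3 and Cry2. Among all 11582 genes tested, 5793 had no overlap, so a lack of overlap is common in this table.

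**Figure D1:**
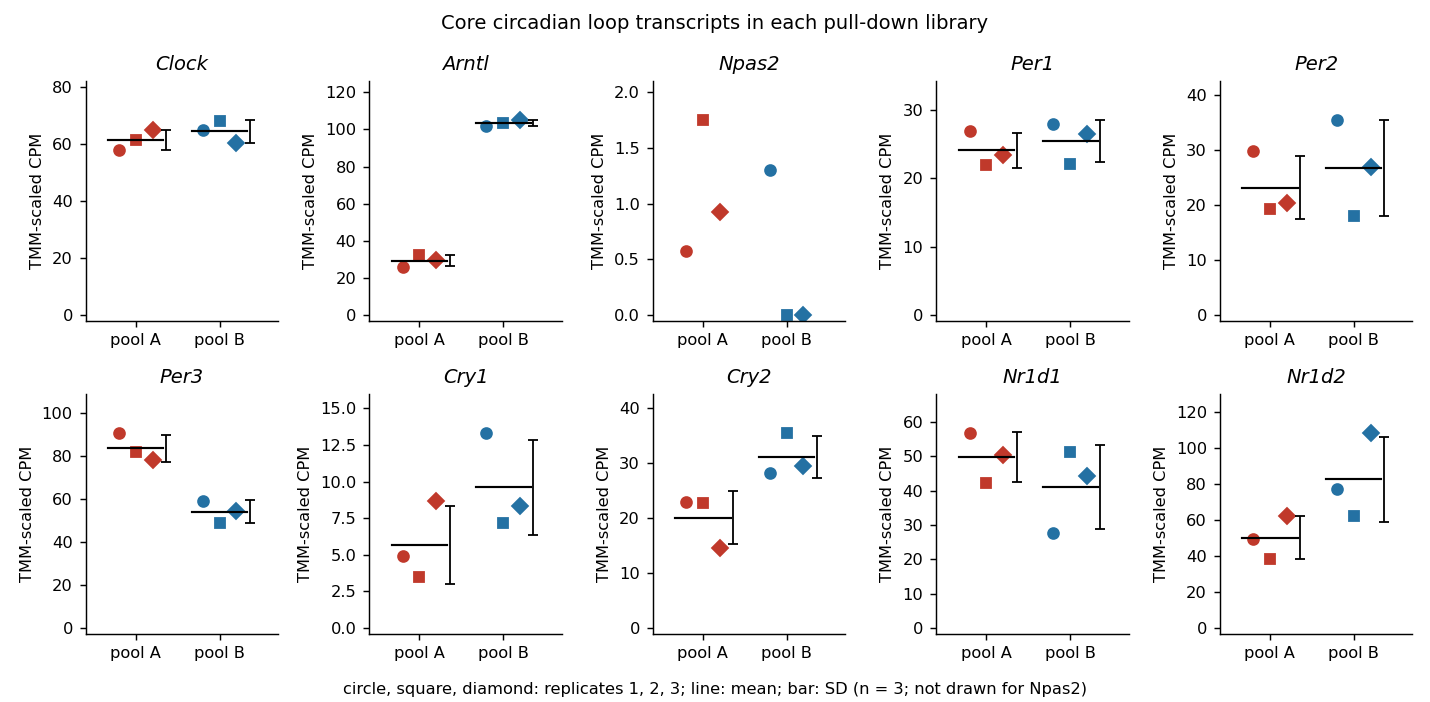
Level of each of the 10 loop genes in the 6 libraries, in TMM-scaled CPM on a linear axis that differs between panels. Points are libraries, lines are means and bars are SDs (n = 3 per pool, not drawn for Npas2). Arntl lies between 26.04 and 32.4 CPM with pool A and between 101.9 and 105.1 with pool B, while the Clock values of the pools intermingle.

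**Figure D2:**
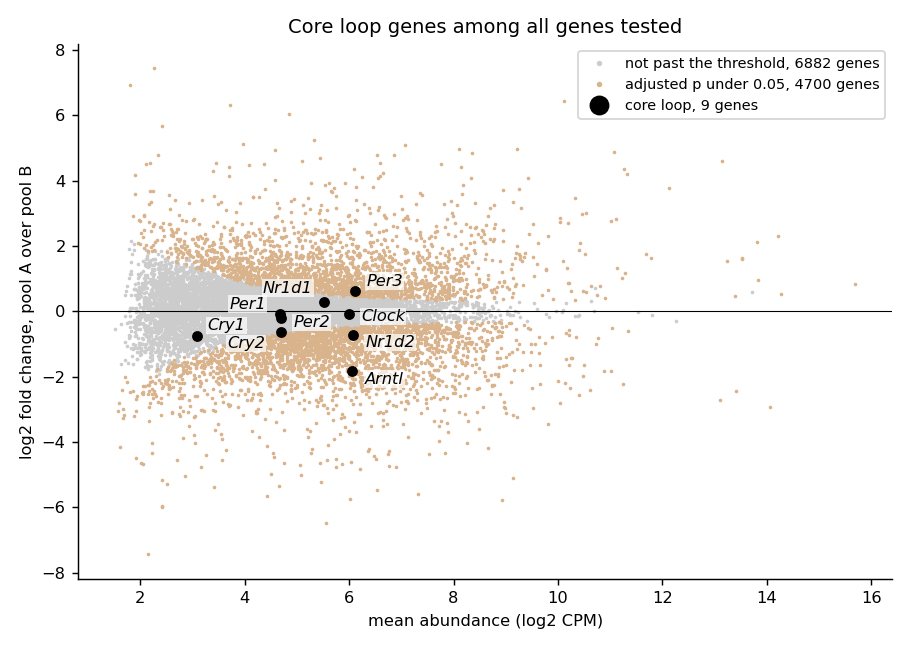
Log2 fold change of pool A over pool B against mean abundance (log2 CPM) for the 11582 genes tested, with the 9 tested loop genes in black. Arntl is the loop gene farthest from 0, and most of the others lie within the grey band of genes that did not pass the threshold.

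The activators were recovered unequally. Clock, which encodes the histone acetyltransferase of the activating pair, had 57.9, 61.3 and 64.9 CPM in pool A replicates 1, 2 and 3. With pool B it had 64.9, 68.3 and 60.4 CPM. The groups overlapped, and the log2 fold change was -0.07 ± 0.18 (SE), with a 95% interval from -0.45 to 0.30 and an edgeR adjusted p of 0.799. In linear terms the interval runs from 0.734-fold to 1.24-fold, so larger differences between the pools are outside it.

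Arntl, the gene of Clock's partner BMAL1, had 26.04, 32.4 and 29.4 CPM in the 3 pool A libraries. In the pool B libraries it had 101.9, 103.2 and 105.1 CPM. Every pool B library was above every pool A library, and the lowest of pool B was 3.14 times the highest of pool A. The counts behind these values were 90, 74 and 95 with pool A and 314, 201 and 289 with pool B. Arntl was 3.54-fold higher with pool B (95% interval 2.71 to 4.64), with an edgeR adjusted p of 7.21e-09. The size of this difference was greater than that of 90.3% of all tested genes. Its spread between pool B libraries, a coefficient of variation of 1.55%, was smaller than the 6.11% that counting alone would give, and with pool A both were close (10.9% and 10.8%).

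Npas2, a paralog of Clock that can take its place beside BMAL1, was barely detected. It had 2, 4 and 3 counts with pool A and 4, 0 and 0 with pool B, and it did not pass the filter. Per TMM-scaled library size, its 9 counts with pool A and 4 with pool B give a ratio of 1.95, with an exact 95% counting interval from 0.544 to 8.67, so no difference was detectable at this depth.

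Because CLOCK and BMAL1 act as a pair, the counts of Arntl per count of Clock were compared within each library, a ratio that no scaling of the libraries can alter. The ratio also depends on the lengths of both transcripts, so it is read only between pools. It was 0.450, 0.529 and 0.452 in the pool A libraries. It was 1.57, 1.51 and 1.74 in the pool B libraries. The pools did not overlap, and the mean log2 ratio was lower with pool A by a difference of -1.75. The exact two-sided permutation test gave p = 0.1, the smallest that 3 against 3 libraries allow, and an adjusted p of 0.2 over the 8 ratios computed among loop genes. The ratio of Arntl to Npas2 rested on the few counts of Npas2 and adds no further information.

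Of the period genes, which encode the PER proteins that carry cryptochromes into the nucleus, Per3 alone passed the threshold. Per1 had 26.9, 21.9 and 23.5 CPM with pool A and 27.9, 22.1 and 26.5 CPM with pool B. Per2 had 29.8, 19.3 and 20.4 CPM with pool A and 35.4, 17.97 and 26.9 CPM with pool B. For both genes the values of the pools intermingled. The log2 fold change of Per1 was -0.08 (95% interval -0.64 to 0.47), with an edgeR adjusted p of 0.841. That of Per2 was -0.22 (95% interval -0.82 to 0.39), with an edgeR adjusted p of 0.601. Per2 varied within a pool by more than counting alone would give, with coefficients of variation of 24.9% and 32.5% in pools A and B against 11.9% and 11.7%.

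Per3, the period gene that is least needed for rhythmicity in the mouse, went toward pool A. Its levels there were 90.6, 81.9 and 77.9 CPM. With pool B they were 59.1, 48.8 and 54.6 CPM. All pool A libraries were above all pool B libraries, by a factor of 1.32 between the nearest values. Per3 was 1.54-fold higher with pool A (95% interval 1.19 to 1.99), with an edgeR adjusted p of 0.0069. Of all tested genes, 51.0% had a smaller difference, so its size is ordinary in this table.

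Within libraries, Per3 was set against its relatives. There were 3.04, 4.25 and 3.82 counts of Per3 per count of Per2 with pool A. With pool B there were 1.67, 2.71 and 2.03. Counts of Per1 per count of Per3 were 0.297, 0.267 and 0.302 with pool A and 0.473, 0.453 and 0.487 with pool B. Neither ratio overlapped between the pools, and their log2 differences, pool A minus pool B, were 0.81 and -0.71. Per1 per Per2, in contrast, ran from 0.903 to 1.15 with pool A and from 0.789 to 1.23 with pool B. In exact permutation tests the p was 0.1 for each of the first 2 ratios and 0.7 for Per1 per Per2, with adjusted p-values of 0.2 and 0.8.

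**Figure D3:**
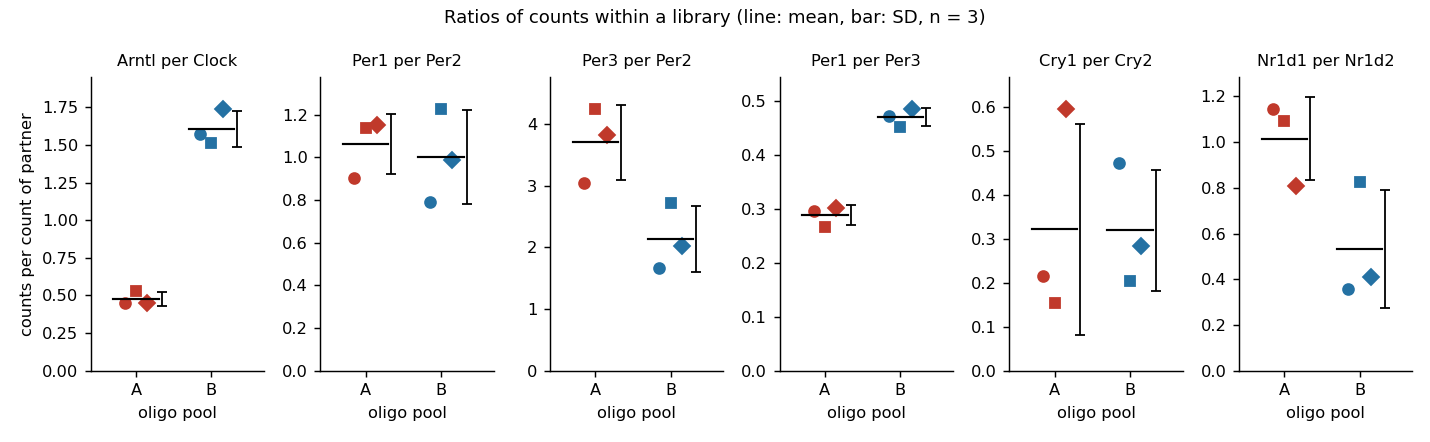
Counts of one loop gene per count of its partner within a library, for 6 of the 8 ratios (those with Npas2 are not drawn). Points are libraries, lines are means and bars are SDs (n = 3 per pool). Arntl per Clock has a mean of 0.477 with pool A and 1.61 with pool B, whereas Per1 per Per2 and Cry1 per Cry2 overlap between the pools.

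The cryptochromes, the repressors that bind the CLOCK and BMAL1 pair most directly, had lower mean CPM with pool A, and neither passed the threshold. Cry2 had 22.9, 22.8 and 14.5 CPM with pool A and 28.2, 35.4 and 29.5 CPM with pool B. The ranges did not overlap, and pool A replicate 3 lay lowest. The log2 fold change was -0.63 ± 0.28 (SE), with a 95% interval from -1.20 to -0.05 and an edgeR adjusted p of 0.076. When libraries were scaled by total counts alone, Cry2 passed the threshold (log2 fold change -0.78, adjusted p of 0.0267). Over all alternatives its adjusted p ran from 0.0267 to 0.298.

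Cry1 rested on the fewest counts of the tested loop genes, with 17, 8 and 28 counts in the pool A libraries and 41, 14 and 23 with pool B. Its levels of 4.92, 3.50 and 8.66 CPM with pool A overlapped those of 13.3, 7.19 and 8.36 CPM with pool B. The log2 fold change of -0.75 had the widest 95% interval among the loop genes, from -1.82 to 0.32, and an edgeR adjusted p of 0.276. A difference as large as that of Cry2, or none, lies within this interval. Counts of Cry1 per count of Cry2 ran from 0.154 to 0.596 with pool A and from 0.203 to 0.471 with pool B, and gave an exact permutation p of 0.8.

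The Rev-erb genes encode haem-binding nuclear receptors that repress Arntl. Nr1d1, which encodes REV-ERB alpha, had 56.7, 42.1 and 50.4 CPM with pool A and 27.6, 51.4 and 44.4 CPM with pool B. The groups overlapped, and pool B replicate 1 lay lowest. The log2 fold change was 0.29 (95% interval -0.19 to 0.78), with an edgeR adjusted p of 0.349. Nr1d1 lies next to Thra, a thyroid hormone receptor gene on the opposite strand whose end is known to overlap that of Nr1d1. The libraries were strand-specific per the labels, but the strand setting of the counting is not given in the sources used here, so reads of this pair may have been exchanged. Thra averaged 56.5 ± 7.6 CPM (SD, n = 3) in the pool A libraries. Its pool B mean was 61.6 ± 11.5 CPM (SD, n = 3), and it did not pass the threshold (edgeR adjusted p of 0.639).

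Nr1d2, which encodes REV-ERB beta, had 49.5, 38.6 and 62.5 CPM with pool A. With pool B it had 77.6, 62.1 and 108.4 CPM. The highest pool A library and the lowest pool B library nearly met, at 62.5 and 62.1 CPM, so the ranges overlapped by 0.336 CPM. Nr1d2 was 1.65-fold higher with pool B (95% interval 1.21 to 2.23), with an edgeR adjusted p of 0.00827. The call was lost without pool A replicate 2 (log2 fold change -0.54, adjusted p of 0.077) and without pool B replicate 3 (-0.48, adjusted p of 0.126), against -0.72 with all libraries. The adjusted p over all alternatives ran from 0.00205 to 0.126.

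The pair of Rev-erb genes had log2 fold changes of opposite sign. Counts of Nr1d1 per count of Nr1d2 were 1.15, 1.09 and 0.807 with pool A and 0.356, 0.826 and 0.409 with pool B. Pool B replicate 2 lay just above pool A replicate 3, so the groups overlapped. The log2 difference of 1.02 gave an exact permutation p of 0.2 and an adjusted p of 0.32, in a test that cannot go below 0.1.

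The 10 genes summed to 348.1 ± 20.6 CPM (SD, n = 3) in the pool A libraries. In the pool B libraries the sum was 439.3 ± 23.9 CPM (SD, n = 3), a gap to which Arntl contributed most, with means of 29.3 and 103.4 CPM. Scaling moved all genes together. The median log2 fold change of all tested genes shifted by -0.14 with total counts alone and by 0.10 with upper-quartile factors, and the loop genes moved with it. Arntl stayed between -1.97 and -1.72 and Per3 between 0.48 and 0.72 over all alternatives, and both passed the threshold in each. The small values of Per1 and Per2 crossed 0 when 1 library was left out, so they have no settled direction. Clock crossed 0 with upper-quartile factors alone, by no more than the shift of all genes (0.10). Leaving out single libraries gave Clock values from -0.12 to -0.023.

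**Figure D4:**
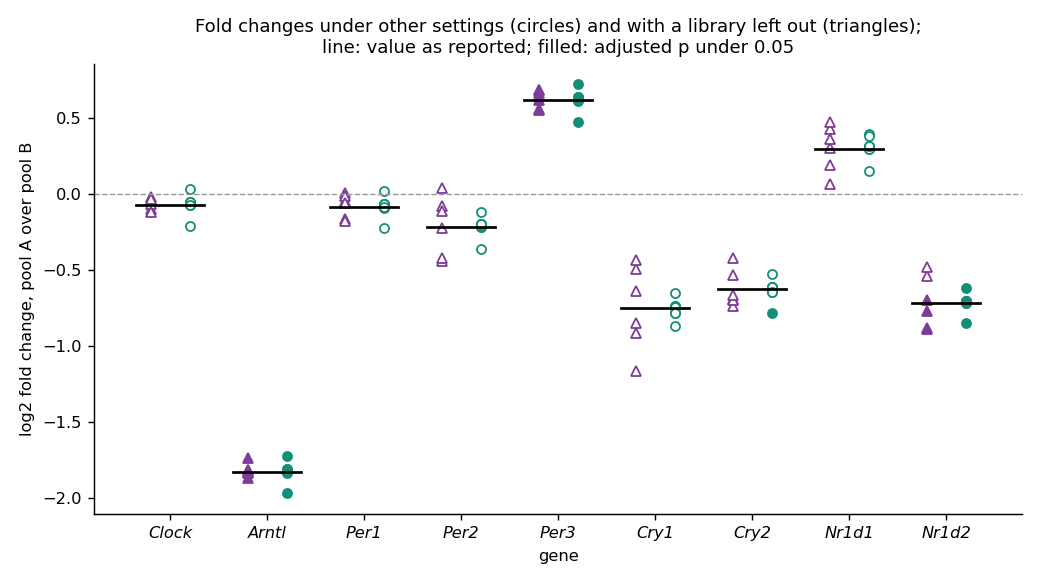
Log2 fold change (pool A over pool B) of the 9 tested loop genes as reported (lines), with each library left out in turn (triangles) and under other scalings, filters, tests and the replicate block (circles). Filled symbols passed an adjusted p of 0.05. Arntl and Per3 are filled throughout, Nr1d2 has 2 open triangles, and Cry2 has 1 filled circle.

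Rows next to the loop genes in the deposited table show whether neighbours shared a difference. Besides Thra, 8 adjacent rows were tested, and 3 of them passed the threshold, a share near the 40.6% of all genes. Each lay beside a loop gene that did not pass. They were Tmem165 after Clock (log2 fold change -1.52, edgeR adjusted p of 0.0191), the vesicle fusion gene Vamp2 before Per1 (1.88, edgeR adjusted p of 0.00645) and the developmental repressor gene Hes6 before Per2 (2.50, edgeR adjusted p of 1.28e-09). Btbd10, after Arntl, had 0.80, of opposite sign to Arntl, with an edgeR adjusted p of 0.0579. The ribosomal protein gene Rpl15, before Nr1d2, had 0.14 (edgeR adjusted p of 0.573). Mterf2 after Cry1, Slc35c1 after Cry2 and Msl1 after Nr1d1 had 0.28, 0.12 and -0.05 and did not pass.

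Of 23 other genes of the clock, 21 were tested, and 5 favoured pool A and 4 pool B past the threshold. This is 42.9% of those tested, again near the 40.6% of all genes. Among the outputs of the loop, 1 of 6 passed: Dbp, a PAR bZIP activator gene driven by CLOCK and BMAL1. Its levels were 59.3, 44.7 and 33.1 CPM with pool A and 251.2, 232.1 and 240.03 CPM with pool B, with no overlap. The log2 fold change of Dbp was -2.40 (95% interval -2.76 to -2.03), in the same direction as Arntl. The other outputs Tef, Hlf, Nfil3, Bhlhe40 and Bhlhe41 had log2 fold changes from -0.62 to 0.50 and did not pass. Bhlhe40 had 0.50 with all libraries and -0.44 without pool A replicate 3, which held 54 of its 78 pool A counts. Hlf had 0.25 with all libraries, 0.74 without pool A replicate 1 and values near 0 (-0.061, -0.0063 and 0.0085) without pool A replicate 2, pool A replicate 3 or pool B replicate 2.

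Of the ROR receptors, which activate Arntl at the sites where Rev-erbs repress it, Rorb was higher with pool B (log2 fold change -1.22, 95% interval -1.57 to -0.87), and Rora had 0.15 and did not pass. Hdac3, the deacetylase that Rev-erbs recruit, was higher with pool A by 0.76 (edgeR adjusted p of 0.0057). Without pool B replicate 2, Hdac3 had 0.53 and only just passed (adjusted p of 0.0497). Ncor1, which bridges the Rev-erbs to it, had -0.30 and did not pass, except with total counts alone (-0.44, adjusted p of 0.0235).

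A last group of 9 genes held those for the kinases and turnover of PER and CRY, and Timeless. Of these, 6 passed, in both directions, and 5 of the 8 other than Timeless, against 40.6% of all genes. The casein kinase genes, whose products phosphorylate PER, went opposite ways. Csnk1e was higher with pool B (log2 fold change -1.33, 95% interval -1.66 to -1.004), and Csnk1d was higher with pool A (0.58, 95% interval 0.20 to 0.95). Gsk3b, a kinase gene, was higher with pool B (-0.57). Timeless, best known for replication fork protection, was higher with pool A (1.37, 95% interval 1.08 to 1.66). Btrc and Fbxw11, which encode the F-box proteins that mark PER for destruction, were higher with pool A by 0.52 and 0.53. The calls of Csnk1d, Btrc and Fbxw11 were lost with total counts alone, with adjusted p-values of 0.0734, 0.112 and 0.101, which left 2 of the 23 other clock genes, Timeless and Hdac3, higher with pool A. Over the 23 genes that number was 3 (with Csnk1d) when either replicate 1 or replicate 2 of pool B was left out. Csnk1d was also lost without pool A replicate 3 or pool B replicate 3 (adjusted p of 0.0535 and 0.0874) and Btrc without pool A replicate 2 (0.0683). Without replicate 1 or replicate 2 of pool B, Btrc (0.0789 and 0.0869) and Fbxw11 (0.0598 and 0.0547) were lost, with log2 fold changes of 0.46 and 0.45 for Btrc and 0.48 and 0.50 for Fbxw11. Fbxl21, for cryptochrome turnover, and Usp2, a deubiquitinase gene, did not pass (0.27 and 0.71). Fbxl21 had -0.12 without pool B replicate 3 and 0.79 when replicate 2 of that pool was left out.

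The loop inhibitor genes Cipc and Ciart had log2 fold changes of -0.20 and -0.02 and did not pass. Arntl2, the paralog of Arntl, had 25, 8 and 18 counts with pool A and 0, 2 and 8 with pool B. It did not pass the filter. In 6 alternatives it was tested, with adjusted p-values from 0.0207 to 0.199, and the single one past the threshold left out pool B replicate 3, the library with 8 of its 10 pool B counts.

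**Figure D5:**
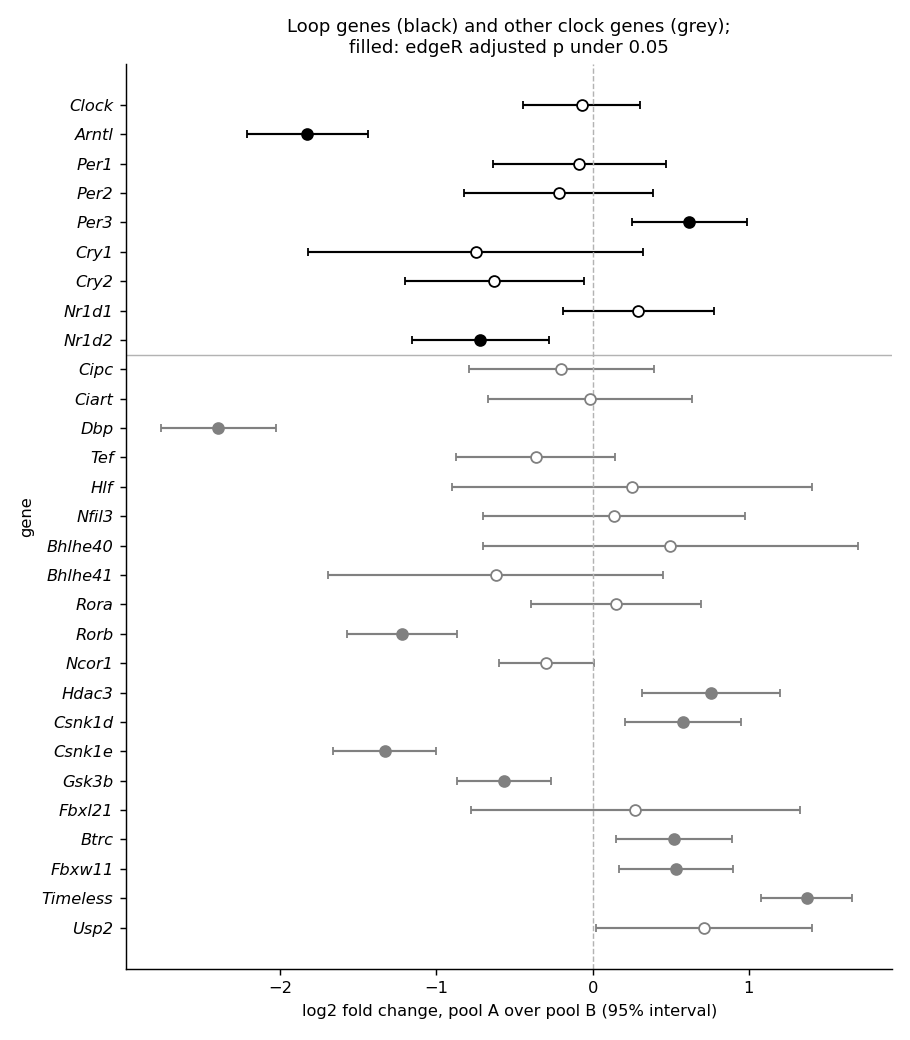
Log2 fold change of pool A over pool B with its 95% interval for the 9 tested loop genes (black) and other clock genes tested (grey). Filled points passed an edgeR adjusted p of 0.05. Dbp and Arntl lie farthest toward pool B and Timeless farthest toward pool A.

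The genes whose pattern over the 6 libraries was most like that of each loop gene past the threshold were found by the root mean square difference of log2 CPM after removing each gene's mean. For Arntl they were Pcyox1, Ttc13 and Sart3, at 0.0465, 0.0689 and 0.0879. For Per3 they were Zfr, Sde2 and Eif4g3, at 0.0503 to 0.0598. For Nr1d2 they were Nudt9, C2cd2 and Rad54l, at 0.0744 to 0.0955. With 6 libraries many genes are alike: 413, 1685 and 462 named genes lay within 0.3 of Arntl, Per3 and Nr1d2.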

How the data were processed

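RNA pulled down from psoralen-treated GH4C1 cells was sequenced as strand-specific paired reads of 150 bases, per the labels' protocols. The authors deposited raw counts per Ensembl gene; per the submitters' processing notes, STAR and featureCounts were used. Their versions, the genome build, the annotation, the strand setting and any filter are not given in the sources used here. The deposited table also holds a mean per pool, which was not used. Columns were matched to samples by title.

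Counts were tested with edgeR 4.0.16 (R 4.3.3): TMM scaling, the tool's own expression filter, and its quasi-likelihood test over the 6 libraries, with no term but the pool. Two-sided p-values were adjusted by Benjamini-Hochberg over 11582 genes, with a threshold of 0.05. Standard errors and 95% intervals come from the fold change and the F statistic. The test was checked on simulated counts in which far fewer genes differed than passed here, so the check does not cover that setting. CPM values divide counts by the TMM-scaled library size. Ratios within a library used counts with 0.5 added for the log2 scale and exact two-sided permutation tests over libraries. Likeness used log2 CPM with a prior count of 2. Alternatives were other scalings, DESeq2 1.42.0, limma-voom (limma 3.58.1), other filters, the replicate number as a block, and each library left out.

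The named genes were the 10 members, the list of 23 other clock genes, the rows adjacent to members in the table, and the 3 named genes nearest in pattern to each member past the threshold. The members and lists were chosen with earlier results of these data known. Same-numbered libraries of the pools did not deviate together over all tested genes (r of 0.0409, -0.0195 and 0.02). This gives no sign of pairing by number but cannot exclude it, and the labels state none. Libraries of 1 pool differed by more than sampling noise, with a chi-square per degree of freedom of at least 6.37. Of the markers, 1 endothelial gene had no single row under its name and was not used here. The values of 2 genes of the list of other clock genes are not reported here, while its counts cover the whole list.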

Additional observations from a re-analysis of the deposited data

How the results depend on the processing

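Of 134 refits of the 9 tested loop genes, 127 kept their direction and side of the threshold. With upper-quartile factors Clock moved to 0.032 and Per1 to 0.018. With total counts alone Cry2 passed (-0.78), and the other clock genes higher with pool A numbered 2 in place of 5. When a library was left out, Per1 ran from -0.18 to 0.0069, Per2 from -0.44 to 0.039 and Nr1d2 from -0.89 to -0.48. Cry1, never past the threshold, had -1.17 when replicate 3 of pool A was absent and -0.44 when replicate 1 of pool B was. Nr1d1 had 0.064 when replicate 1 of pool B was absent and 0.47 when its replicate 2 was. Loop genes higher with pool B then numbered 1 to 2, and other clock genes higher with pool A 3 to 5. The log2 ratio difference ran from -0.058 to 0.26 for Per1 per Per2 and from -0.69 to 0.25 for Cry1 per Cry2. The part that fewer libraries, single libraries or, for the scalings, the shift of all genes had in these changes was not tested. With the replicate number as a block, 1 loop gene favoured pool A and 2 favoured pool B, Arntl had -1.83 and Per3 0.62, and no loop gene or other clock gene changed its call. Cry1 could not be tested under the filter that asks for 10 counts in each library, and 2 ratios with Npas2 had no value without 0.5 added, because of counts of 0. Statements on Npas2, Cry1, Arntl2, Bhlhe40, Hlf and Fbxl21 are limited by few counts or by spread between libraries. In pool A the coefficient of variation was 46.8% for Cry1, 84.2% for Bhlhe40 and 65.6% for Hlf. Counting alone would give 23.8%, 19.6% and 19.5%. For Fbxl21 in pool B the coefficient was 63.0%, against 22.2% from counting. The cause of this spread was not tested.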

Other observations

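Among the tested loop genes, Per1, Per2, Cry1 and Nr1d2 were lowest in replicate 2 of both pools, which is 4 of 9 genes. Of all tested genes, 10.8% had this pattern. It was chosen after its values were seen and was not tested. The replicate 2 libraries also had the smallest totals of their pools, at 2528563 counts for pool A and 1826390 for pool B.

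The within-pool spread of loop genes is described here from 3 libraries per pool, and differences in it were not tested. In pool B the coefficient of variation was 1.55% for Arntl and 6.17% for Clock, where counting alone would give 6.11% and 7.75%. For Nr1d1 and Nr1d2 it was 29.7% and 28.5%, against 9.89% and 6.75% from counting. In pool A the coefficients were 10.9% for Arntl, 5.77% for Clock, 14.8% for Nr1d1 and 23.9% for Nr1d2. Counting alone would give 10.8%, 7.39%, 8.12% and 8.07% there.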
